A study of Homo sapiens with 6 samples.

Results

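The stretch of 28S ribosomal RNA described here runs from position 4281 to position 4490 of the deposited sequence and covers the 5′ part of domain V. Its members are the 210 positions of that stretch, of 5070 positions in 28S and 6939 in both rRNAs, taken by coordinate alone. Within it lie 13 listed pseudouridines (Ψ), all 13 on a U of the reference, and 1 listed 5-methylcytidine, m5C4447, on a C. Another 4 positions are ribose-methylated in common maps of the rRNA (Um4306, Gm4370, Gm4392 and Cm4456), and all 4 have the matching base. That leaves 45 other U, and the stretch holds 59 U, 49 A, 49 C and 53 G in all. The study asked how pseudouridine, with and without a bulky chemical label, is read by reverse transcriptases. The RNA came from HEK293T/17, an established human embryonic kidney line, so a single cell line stands behind every value. Fragments of RNA longer than the small RNAs were treated with CMC or mock-treated. CMC-treated and mock-treated RNA were each copied by HIV reverse transcriptase (HIV RT) with magnesium, by SuperScript III with manganese, and by SuperScript III with magnesium. This gave 6 libraries, 1 for each of the 6 groups, so no value below has a replicate and no difference between groups has a replicate check.

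Pseudouridine is an isomer of uridine in which the base is joined to the sugar through carbon instead of nitrogen, and it still pairs with adenosine. In human rRNA it is made by dyskerin, guided to each site by an H/ACA small nucleolar RNA. CMC, a carbodiimide, forms adducts on U, G and Ψ that last longest on Ψ, where the adduct can halt the copying enzyme or lead it to insert another base. Domain V forms the peptidyl transferase centre, where peptide bonds are made, and it is among the most densely modified parts of the ribosome. 5-methylcytidine at 4447 is made by NOP2, and ribose methyl groups are added by fibrillarin with C/D small nucleolar RNAs.

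The whole stretch is shown 5′ to 3′, on the RNA's own strand with T for U as in the deposited tables and the listed pseudouridines in capitals, because the spacing of the sites and the bases beside them recur in every result.
28S 4281 to 4490: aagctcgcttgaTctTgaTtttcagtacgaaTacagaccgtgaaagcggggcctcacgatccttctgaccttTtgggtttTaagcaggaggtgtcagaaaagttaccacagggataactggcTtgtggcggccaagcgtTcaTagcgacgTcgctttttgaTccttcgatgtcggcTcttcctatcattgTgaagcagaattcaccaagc
The sites the results turn on are also shown with 7 nt on each side, the site in capitals. Ψ4471 had the highest mutation share, Ψ4361 the highest stop share with HIV RT and magnesium, Ψ4312 the highest stop share with manganese, and Ψ4299 the highest share of arriving reads that ended on the site itself. Ψ4431 was read as different bases in different conditions, and Ψ4403 and Ψ4420 passed no call.
Ψ4471: atcattgTgaagcag
Ψ4361: tgggtttTaagcagg
Ψ4312: gtacgaaTacagacc
Ψ4299: atcttgaTtttcagt
Ψ4431: agcgacgTcgctttt
Ψ4403: aactggcTtgtggcg
Ψ4420: caagcgtTcatagcg

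At each position the tables count the reads that crossed it, the bases they carried and the reads that stopped. Below, mutation share means mismatched reads as a percent of the reads that crossed. Stop share means stopped reads as a percent of stopped and crossing reads together. A change is the share with CMC minus the share with mock, in percentage points. A change was called where it reached 5 points and the p-value of Fisher's exact test (two-sided), adjusted for all positions tested in 18S and 28S by the Benjamini-Hochberg method, fell under 0.05. At this depth the size threshold decided most calls, and each call compares 2 libraries, not 2 treatments. All 210 positions had at least 100 crossing reads in every library. Median crossing reads per position lay between 55623.5 and 62412 in the CMC libraries and between 178353.5 and 268696 in the mock libraries. The lowest depth in every CMC library was at Ψ4431, with 9402, 10245 and 8152 crossing reads for HIV RT, manganese and magnesium. The widest 95% Newcombe interval at a listed position reached 0.664 points on either side for mutation and 0.677 points for stops. These intervals cover counting error only, since no molecular identifiers are described and PCR copies are not independent molecules. The stretch held between 2.48% and 2.63% of all stops in the CMC libraries and between 3.61% and 4.46% in the mock libraries. Whether HIV RT and SuperScript III libraries went through the same read processing is not given in the sources used here, and the part of processing in differences between these enzymes was not tested.

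Mutation shares were higher with CMC than with mock at 13 of 13 pseudouridines in each condition. The median change was 3.49 points in HIV RT. It was 2.80 for SuperScript III when manganese was the metal and 0.478 when magnesium was. The same median over the 45 other U was 0.741, 0.570 and 0.117 points, and over all U of both rRNAs outside the stretch it was 0.954, 0.765 and 0.136. Over all tested positions it was 0.0542, 0.195 and 0.0529 points. Few of these changes were large: with HIV RT 3 of 13 pseudouridines rose by the call, against 1.05% of all positions and 5.81% of all U. With manganese 6 of 13 rose, against 1.29% of all positions and 5.90% of all U. With magnesium 1 of 13 rose, against 0.159% of all positions and 0.521% of all U. No mutation share of the 210 positions fell by the call in any condition, where 0.101% (HIV RT), 0.332% (manganese) and 0.0868% (magnesium) of all positions fell. The size threshold set the counts. At 2 points 11 pseudouridines were called with HIV RT. Where CMC had only to reach 2 times the mock share, 13 were called in each condition. That ratio also called 32, 90 and 89 other positions of the stretch with HIV RT, manganese and magnesium. Shares over all positions were not computed at either setting. The 45 other U had median shares of 1.42% with CMC against 0.720% with mock in HIV RT. With manganese these were 0.868% against 0.143%, and with magnesium 0.210% against 0.0600%.

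Ψ4471 stood above all other members. Its mutation share was 30.4% with CMC and 0.624% with mock in HIV RT, 39.1% and 0.342% with manganese, and 16.7% and 0.108% with magnesium. It was the only pseudouridine, and the only position of the stretch, whose mutation share rose in all 3 conditions. The share of all positions with such a joint rise was not computed, and with magnesium alone 0.159% of all positions rose. Even with magnesium, where the other 12 pseudouridines stayed at or below 2.13% with CMC, its share was 16.7%.

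Ψ4431 and Ψ4296 rose in 2 conditions, HIV RT and manganese. Ψ4431 had 12.3% with CMC against 0.414% with mock in HIV RT, 8.67% against 0.162% with manganese, and 0.307% against 0.0379% with magnesium. Ψ4296 had 8.91% against 0.184%, 5.63% against 0.0793%, and 1.72% against 0.231% in the same order. Neither passed with magnesium, where Ψ4431 lay below the 13 sites' median. With the change centred on the median of unlisted U, Ψ4296 had 4.79 points under manganese and no longer passed there. Unlisted U here are all tested U of both rRNAs except the listed pseudouridines and Um4306.

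The other 3 mutation calls were made with manganese alone, at Ψ4353, Ψ4361 and Ψ4423. Ψ4361 had 8.91% with CMC against 0.237% with mock under manganese, 4.04% against 0.602% with HIV RT and 0.863% against 0.0524% with magnesium. Ψ4353 had 6.79% against 0.209% with manganese, 3.81% against 0.220% with HIV RT and 2.13% against 0.0691% with magnesium. Ψ4423 had 5.39% against 0.170% with manganese, 1.85% against 0.364% with HIV RT and 0.525% against 0.0659% with magnesium. At these 3 sites manganese gave the highest of the 3 CMC shares. Centred on unlisted U, the manganese change at Ψ4423 was 4.46 points, under the threshold, which left 4 manganese calls.

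The remaining 7 sites stayed under 5% in every library. With HIV RT their CMC shares ran from 2.26% at Ψ4457 to 4.75% at Ψ4299, and with manganese from 0.995% at Ψ4312 to 2.93% at Ψ4457. With magnesium they ran from 0.148% at Ψ4442 to 1.63% at Ψ4457. Ψ4312 and Ψ4442 had the highest mock shares of the 13 with HIV RT, 0.998% and 0.965%.

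**Figure D1:**
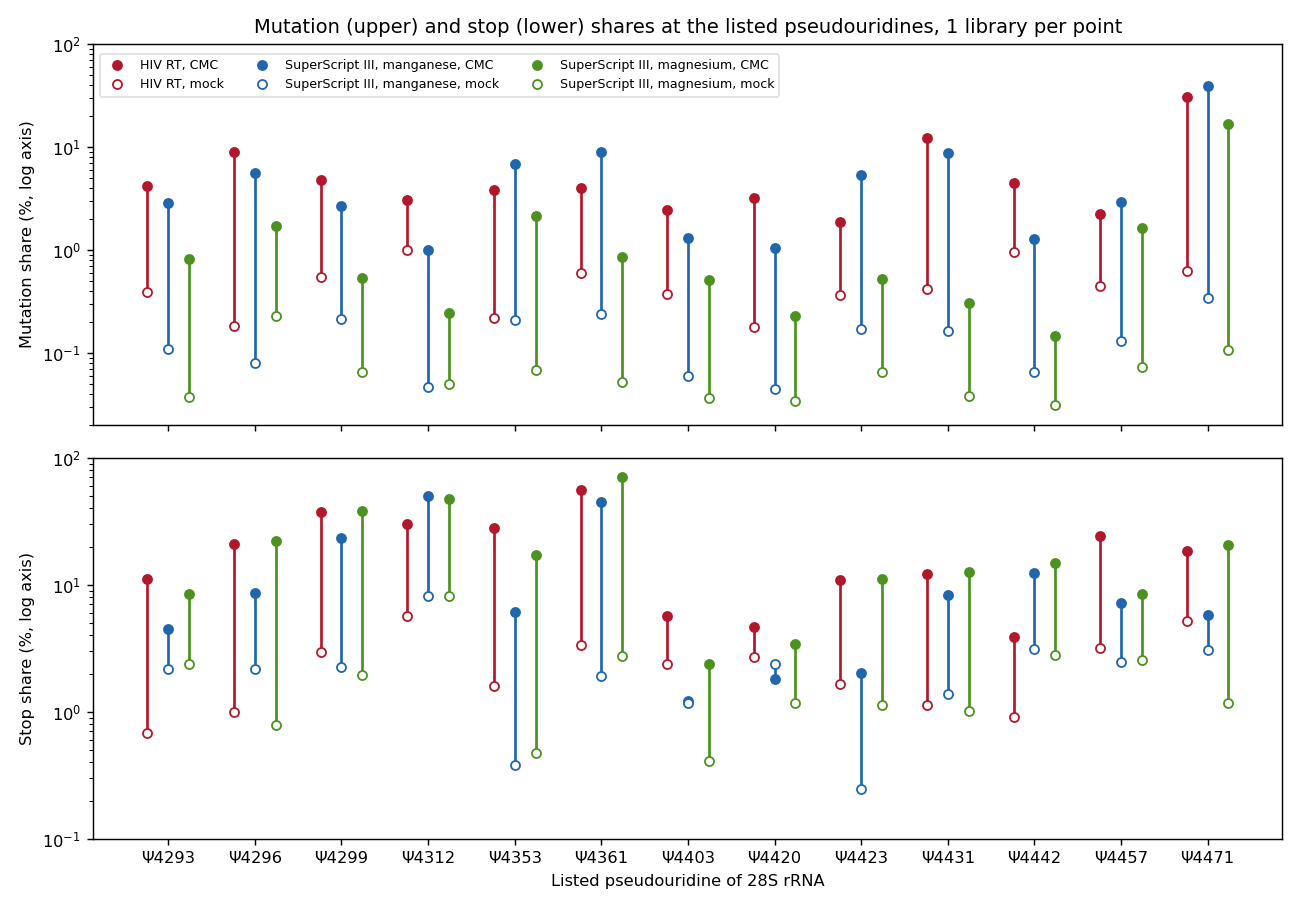
Mutation share (upper panel) and stop share (lower panel) in percent on log axes at the 13 listed pseudouridines; filled points are CMC libraries, open points mock libraries, joined by a line, with a colour for each of the 3 conditions and 1 library per point. Every filled mutation point lies above its open partner, Ψ4471 is highest in all 3 colours (30.4%, 39.1% and 16.7%), and the only stop pair with CMC below mock is Ψ4420 with manganese (1.80% against 2.38%).

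Over the 13 sites the median stop change exceeded the median mutation change in every condition. The median stop change over the 13 pseudouridines was 13.4 points with HIV RT, 5.68 under manganese and 11.9 under magnesium. Over the 45 other U it was 1.78, 1.97 and 1.88 points, over U outside the stretch 3.24, 1.37 and 4.02, and over all tested positions 0.154, 0.0238 and 0.00510. By the same call 10 of 13 pseudouridines rose with HIV RT, against 10.1% of all positions and 37.7% of all U. With manganese 7 of 13 rose, against 8.38% of all positions and 26.3% of all U. With magnesium 11 of 13 rose, against 9.22% of all positions and 43.8% of all U.

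The highest stop shares were at Ψ4361, Ψ4312 and Ψ4299. Ψ4361 had 55.6% with CMC against 3.36% with mock in HIV RT, 44.5% against 1.91% with manganese, and 70.4% against 2.74% with magnesium. Ψ4312 had 30.2% against 5.68%, 49.8% against 8.16%, and 47.6% against 8.20% in the same order. Ψ4312 had the highest stop share of the 13 under manganese, and it already had the highest mock stop share of the 13 in each condition. Ψ4299 followed with 37.3% against 2.95%, 23.2% against 2.25%, and 38.0% against 1.93%.

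A further 3 sites, Ψ4296, Ψ4353 and Ψ4431, also rose in all 3 conditions. Ψ4353 had 28.1% with CMC against 1.61% with mock in HIV RT, 6.07% against 0.381% with manganese and 17.2% against 0.476% with magnesium. Ψ4431 was steadier, at 12.2% against 1.13%, 8.29% against 1.39% and 12.7% against 1.01%. With Ψ4361, Ψ4312 and Ψ4299 this makes 6 pseudouridines called for stops in all 3 conditions, against 4.34% of all positions. The share of all U with such a joint rise was not computed. Centred on unlisted U, the manganese change at Ψ4353 was 4.31 points and did not pass.

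At 5 sites the stop call depended on the condition. Ψ4457 had 24.0% with CMC against 3.15% with mock in HIV RT but 7.13% against 2.46% with manganese and 8.43% against 2.55% with magnesium. Ψ4442 went the other way, with 3.84% against 0.915% in HIV RT, 12.5% against 3.13% with manganese and 14.7% against 2.79% with magnesium. Ψ4293, Ψ4423, Ψ4457 and Ψ4471 rose in HIV RT and in magnesium and passed no call under manganese, while Ψ4442 rose under both metals with SuperScript III. Centred on unlisted U, the magnesium changes at Ψ4293 and Ψ4457 were 2.09 and 1.95 points and did not pass. Ψ4471 had 18.6% against 5.15%, 5.82% against 3.07% and 20.5% against 1.18% in the order HIV RT, manganese, magnesium, so its lowest stop share was in the library with its highest mutation share.

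Ψ4403 and Ψ4420 passed no call of either kind in any condition. Ψ4403 had stop shares of 5.72% with CMC against 2.39% with mock in HIV RT, 1.22% against 1.17% with manganese and 2.38% against 0.412% with magnesium. Ψ4420 had 4.65% against 2.68%, 1.80% against 2.38% and 3.45% against 1.18%. Their CMC mutation shares of 2.44%, 1.31% and 0.515% at Ψ4403 and 3.20%, 1.06% and 0.229% at Ψ4420 all exceeded the mock shares, which lay between 0.0342% and 0.375%. Both sites lie in the longest run of the stretch without a called rise of either measure, the 60 nt from 4363 to 4422. Its 11 U had median stop changes of 1.14, 0.595 and 1.88 points with HIV RT, manganese and magnesium. The largest single rise in stop share in the run was 3.83 points. Its called stop falls were G4367 with HIV RT (-21.9 points) and C4387 with magnesium (-5.53 points). Median crossing reads over the run were 89140.5, 86638.5 and 98667 in the 3 CMC libraries. Ψ4403 had 44894, 56956 and 51875, while Ψ4420 had fewer, 16581, 19697 and 15687.

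**Figure D2:**
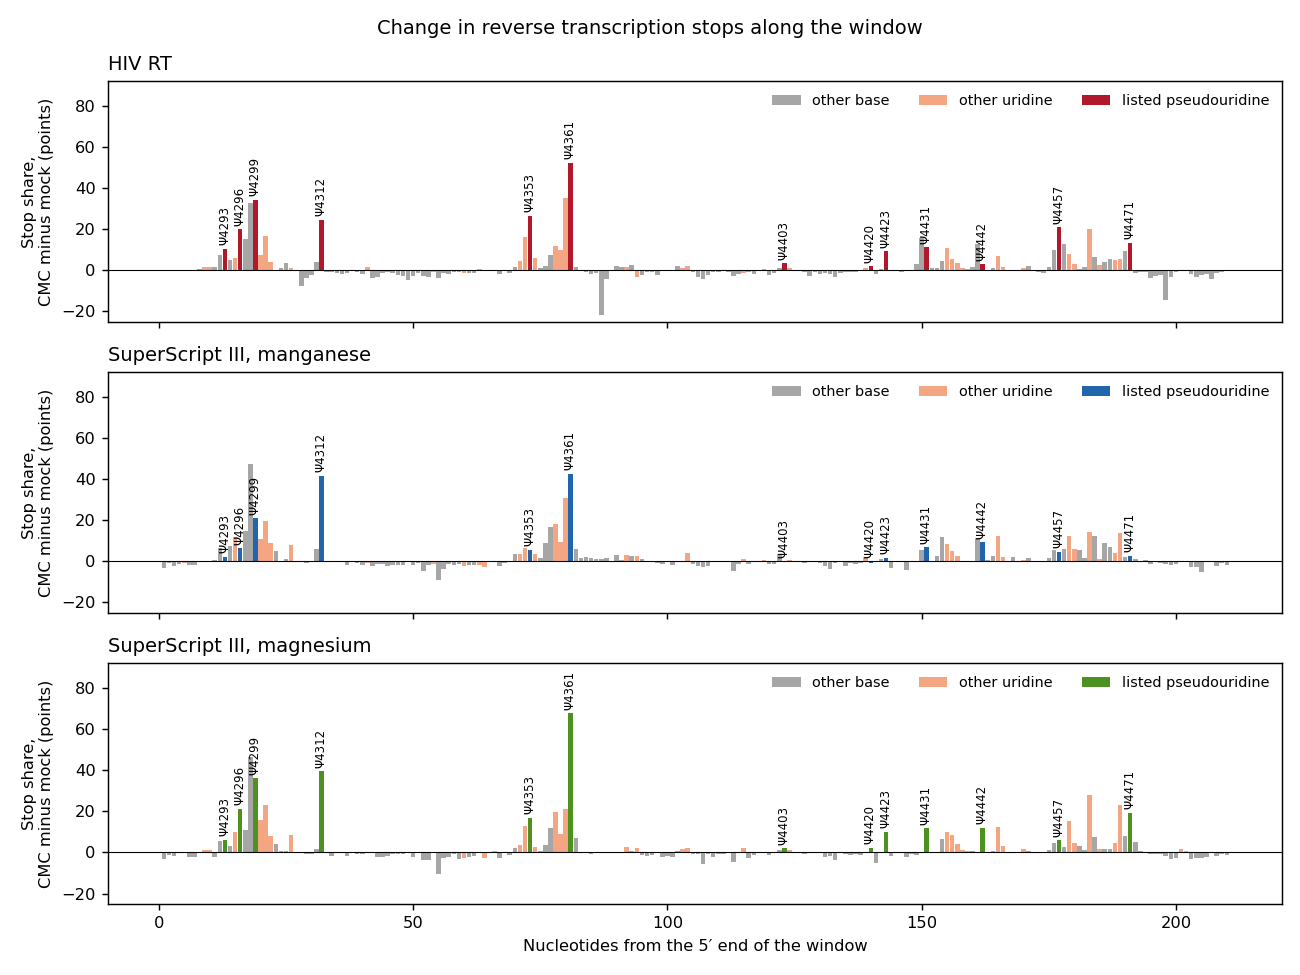
Stop share with CMC minus mock, in percentage points, at each of the 210 positions, plotted by nucleotides from the 5′ end of the stretch, 1 panel per condition; bars are coloured for listed pseudouridines, other uridines and other bases. The tallest pseudouridine bar is Ψ4361 in each panel (52.2, 42.6 and 67.6 points), and the tall bar of another base beside Ψ4299 is A4298. The longest run without tall positive bars holds Ψ4403 and Ψ4420.

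Stops in these tables are read here as booked at the template base that was not copied. A read whose outermost base lies on Ψ4299 is therefore counted as a stop at A4298, its 5′ neighbour, and is left out of the crossing reads of Ψ4299. On this reading the reads that reached a site divide into those that stopped before it, those that ended on it and those that crossed it. Equality of the counts with this booking was checked only at the 5′ end of each rRNA. Reading the tables this way was chosen after seeing the data. The median share of reads that ended on a pseudouridine was 8.60% with CMC against 1.66% with mock in HIV RT, 7.79% against 1.53% with manganese, and 5.22% against 1.49% with magnesium. Stopping before and ending on the site together took a median of 25.5% of the reads with HIV RT, 14.5% under manganese and 16.7% under magnesium, against 3.71%, 3.71% and 3.87% with mock.

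With manganese the larger of these shares was ending on the site at 9 of 13 pseudouridines, with HIV RT at 2 and with magnesium at 4. In the mock libraries it was at 6, 7 and 6 for manganese, magnesium and HIV RT. The clearest case was Ψ4299. There 23.1% of the reads that reached it ended on it with HIV RT, 39.0% under manganese and 34.3% under magnesium, against 2.19%, 1.58% and 2.01% with mock. This appears in the tables as the highest stop share of any position outside the list under manganese and magnesium, at A4298. A4298 had 34.8% with CMC against 2.02% with mock in HIV RT, 48.6% against 1.54% with manganese and 48.2% against 2.01% with magnesium. The tables do not show which base these reads carried at Ψ4299, and whether it was copied from the template was not tested.

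Ψ4361 showed both outcomes. Of the reads that reached it, 43.7% stopped before it and 21.3% ended on it with HIV RT, 35.7% and 19.7% with manganese, and 65.2% and 7.31% with magnesium. U4360, where the latter are booked, had a stop share of 40.7% against 5.53% with mock in HIV RT, 32.3% against 1.499% with manganese and 22.5% against 1.35% with magnesium. Only 34.9%, 44.6% and 27.4% of the reads crossed Ψ4361 after CMC, against 91.4%, 96.6% and 96.0% with mock.

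**Figure D3:**
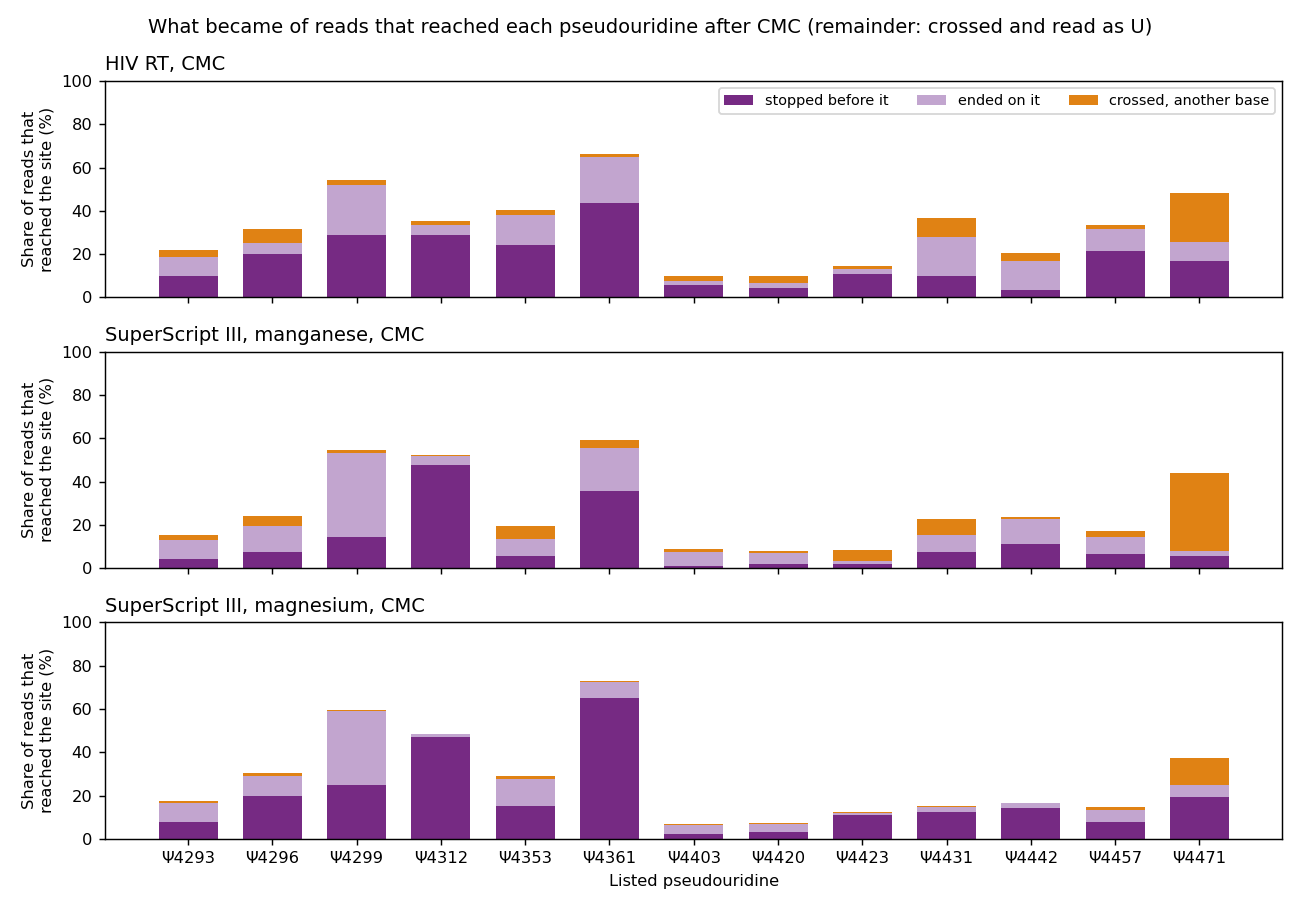
Percent of the reads reaching each of the 13 pseudouridines in the CMC libraries that stopped before it, ended on it, or crossed it with another base, as stacked bars from 0 to 100%, 1 panel per condition; the remainder crossed with U. Ψ4361 (43.7%, 35.7% and 65.2%) and Ψ4312 (28.8%, 47.8% and 46.8%) lose most reads before the site, Ψ4299 has the largest share ending on the site (23.1%, 39.0% and 34.3%), and Ψ4471 has the tallest segment of another base (22.6%, 36.1% and 12.6%).

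The base 5′ of a pseudouridine was called for stops at most sites with HIV RT and manganese, and at 6 of 13 with magnesium. The median change at that base over the 13 sites was 9.45 points with HIV RT, 5.81 under manganese and 4.48 under magnesium, and 9, 9 and 6 of the 13 were called, against 10.1%, 8.38% and 9.22% of all positions. For 9 of the 13 sites the 5′ base is not a U, and 6, 6 and 3 of these were called, against 4.55%, 4.80% and 2.29% of all A, C and G. The median stop change of these 9 was 9.45, 5.71 and 1.55 points. The 27 non-U bases 5′ of another U had 1.07, 0.296 and 0.0602 points, and the 115 non-U bases 5′ of A, C or G had -1.01, -0.517 and -0.839. At Ψ4431 and Ψ4442 the 5′ base was called with HIV RT and manganese and not with magnesium. G4430, 5′ of Ψ4431, rose by 15.6 points with HIV RT and 5.65 with manganese, and changed by 0.325 with magnesium. A4441, 5′ of Ψ4442, rose by 12.8 and 11.4 points and changed by 0.105. With magnesium the stop changes at Ψ4431 and Ψ4442 themselves were 11.7 and 11.9 points. Ψ4312 and Ψ4299 lay far apart in this respect. Ψ4312 had 24.5, 41.6 and 39.4 points at the site against 3.93, 5.81 and 1.55 at A4311, while Ψ4299 had 34.4, 20.9 and 36.1 against 32.8, 47.1 and 46.2 at A4298.

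Some pseudouridines lie within 3 nt of each other and share flanks. For the 8 that do not, the median stop change at the site was 17.2 points with HIV RT, 6.29 under manganese and 14.3 under magnesium, and at the 5′ base 11.3, 5.76 and 3.01. At the next base to the 3′ side it was 1.33, 0.904 and 1.75, and 3 nt to the 3′ side it was 1.13, 3.94 and 1.85.

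**Figure D4:**
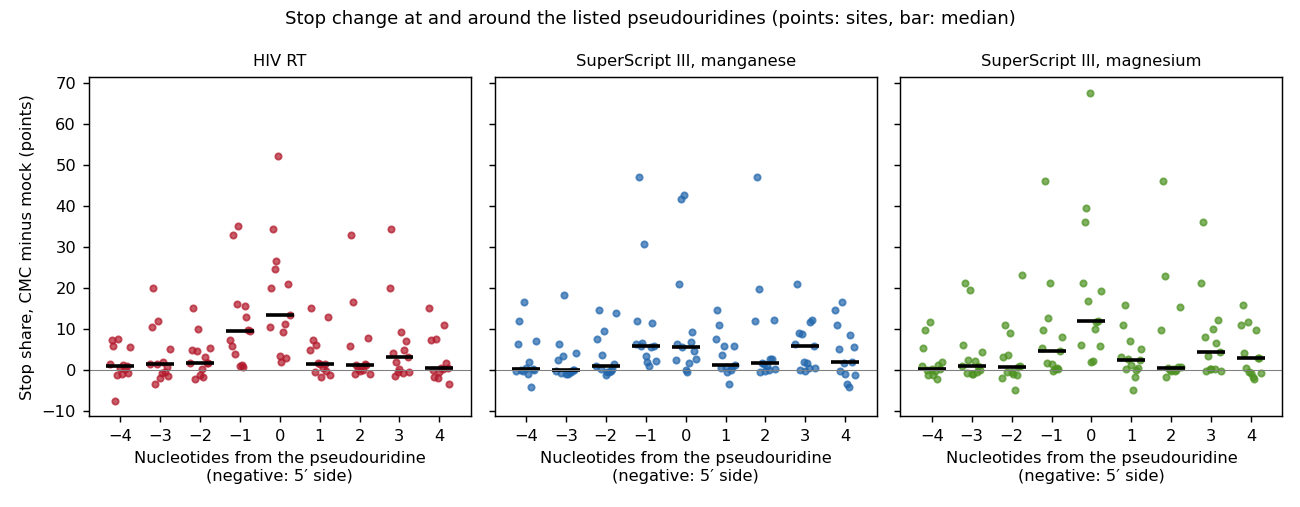
Stop share with CMC minus mock, in percentage points, at the 13 pseudouridines and the 4 nt on either side, with 1 point per site, a black bar for the median and negative distances toward the 5′ end. The medians are highest at the site with HIV RT and magnesium (13.4 and 11.9 points), while with manganese the base 5′ of the site (5.81) and the base 3 nt to its 3′ side (5.86) have medians near that of the site itself (5.68).

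The base read at a pseudouridine was most often C. C led among mismatched reads of the CMC libraries at 10 of 13 sites with HIV RT, 8 under manganese and 10 under magnesium. In the mock libraries it led at 9, 12 and 12. With magnesium the CMC counts were low at some sites, down to 18 mismatched reads at Ψ4442. Pooled over the 13 sites, C made up 84.1%, 74.2% and 90.8% of mismatches with CMC against 44.2%, 53.1% and 52.3% with mock. Most of those reads came from Ψ4471, where C was 97.5% of 19210 mismatched reads with HIV RT, 82.5% of 29481 under manganese and 97.5% of 8417 under magnesium. Without CMC the C share there was 62.4%, 52.7% and 68.6%. Ψ4296 was likewise read as C, at 96.4%, 81.0% and 93.9% with CMC.

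Several sites departed from that. Ψ4431 was read as C in 78.4% of its mismatches with HIV RT but as A in 86.3% with manganese, where C was 8.90%. With magnesium it had only 25 mismatched reads. In the mock libraries C led there in all 3 conditions, at 45.6%, 49.2% and 49.1%. Ψ4299 was read as A in 49.1% of mismatches with HIV RT and 80.7% with manganese, and A led there in mock as well, at 60.7% and 90.02%. With magnesium A led at Ψ4299 in mock (51.7%, C 13.3%) but C led with CMC (54.3%, A 38.3%). The C share at Ψ4299 was higher with CMC than with mock in the other conditions too, 43.7% against 25.8% with HIV RT and 17.7% against 4.44% with manganese.

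G led at Ψ4353 and Ψ4423 in all 3 CMC libraries. At Ψ4353 it was 47.3% with HIV RT, 68.7% under manganese and 70.7% under magnesium, against 24.6%, 30.4% and 34.3% with mock. At Ψ4423 it was 51.9%, 63.7% and 42.0%, against 37.8%, 21.1% and 32.7%, but with magnesium and CMC that site had only 69 mismatched reads. G also led with CMC at Ψ4403 under manganese (56.4%) and at Ψ4293 under magnesium (50.4% of 121 mismatched reads). Ψ4353 sits in a run of U beside 3 G, and the U next to it gave the largest mutation change outside the list. U4354 had 9.64% with CMC against 0.505% with mock in HIV RT, 10.8% against 0.648% with manganese and 2.60% against 0.110% with magnesium, above Ψ4353 itself in all 3 CMC libraries. G was 91.5%, 98.3% and 97.1% of those mismatches. U4358, on the other side of the 3 G, had 6.64% against 0.0980% with manganese and was read as G in 95.8% of its mismatches. These 2 U are the only positions outside the list with a called mutation rise, U4354 with HIV RT and manganese and U4358 with manganese.

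Conditions ordered the sites differently for mutations and more alike for stops. The mutation change was larger with HIV RT than with magnesium at 13 of 13 sites and larger with manganese than with magnesium at 13 of 13. Between HIV RT and manganese it was larger with HIV RT at 8 of 13. Manganese exceeded magnesium by between 0.751 points at Ψ4312 and 22.2 points at Ψ4471. The stop change was larger with manganese than with magnesium at 1 of 13 sites, Ψ4312, by 2.25 points. The largest gap the other way was at Ψ4361, where manganese minus magnesium was -25.1 points. Across the 13 sites, which share libraries, Spearman's rho of the mutation change was 0.269 between HIV RT and magnesium, 0.484 between HIV RT and manganese and 0.698 between manganese and magnesium. For stops it was 0.753, 0.698 and 0.852.

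Mutation and stop changes did not rank the sites alike within a condition, with rho of 0.192, 0.121 and 0.148 across the 13 sites for HIV RT, manganese and magnesium. The mutation change exceeded the stop change at 4 sites with HIV RT (Ψ4420, Ψ4431, Ψ4442 and Ψ4471), at 7 with manganese and at 0 with magnesium. The 7 with manganese were Ψ4293, Ψ4353, Ψ4403, Ψ4420, Ψ4423, Ψ4431 and Ψ4471. Ψ4471 was the extreme in that direction, with 38.8 points of mutation against 2.74 of stops under manganese. Ψ4312 was the extreme in the other under manganese, with 0.948 points of mutation against 41.6 of stops.

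Grouped by the base 3′ of the site, which is copied just before it, the 2 sites followed by G (Ψ4296 and Ψ4471) had the highest median mutation changes, 19.3 points with HIV RT, 22.2 under manganese and 9.04 under magnesium. Each is the midpoint of unlike sites, for example 8.73 and 29.8 points with HIV RT and 5.55 and 38.8 with manganese. Sites followed by A (Ψ4312, Ψ4361 and Ψ4423) had the highest median stop changes with manganese and magnesium, 41.6 and 39.4 points, but Ψ4423 had 1.76 and 10.04. With HIV RT sites followed by U had a median of 26.5 points, against 24.5 for those followed by A. The 5 sites followed by C (Ψ4293, Ψ4420, Ψ4431, Ψ4442 and Ψ4457) had stop medians of 10.4, 4.67 and 6.02 points. With 2 to 5 sites a group these are descriptions, and sites within a group overlapped those of the others.

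The pseudouridines were not the only U with raised stops. Of the 45 other U, 15 were called with HIV RT, 15 under manganese and 14 under magnesium, or 33.3%, 33.3% and 31.1%, against 37.7%, 26.3% and 43.8% of all U. Most of the called ones lay close to a listed site. Of 20 other U within 3 nt of a listed pseudouridine, 12, 12 and 11 were called, and of 25 farther away 3, 3 and 3, a distance chosen after the values were seen. Their median stop changes were 5.63, 7.71 and 8.40 points within 3 nt and 0.898, 0.143 and 1.43 farther away. Among all 59 U ranked by stop change, 8, 3 and 6 of the 13 pseudouridines were in the top 13. By mutation change 9, 9 and 6 were.

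Counting all bases, 36, 41 and 35 of the 210 positions rose for stops, or 17.1%, 19.5% and 16.7%. Of all positions 10.1%, 8.38% and 9.22% rose. These shares are not matched for base. In the stretch 59 of 210 positions are U, against 1155 of 6939 in both rRNAs, and U were called more often. Among its 49 A, 49 C and 53 G, 11, 18 and 9 rose, against 4.55%, 4.80% and 2.29% of all A, C and G. In all 3 conditions 24 of the 210 rose, or 11.4%, against 4.34% of all positions. Besides the 6 pseudouridines these 24 were 18 positions, 13 of them U. They included U4463, with 22.5% against 2.34% in HIV RT and 34.7% against 6.86% with magnesium. They included U4301, 2 nt 3′ of Ψ4299, with 22.5% against 2.68% under manganese, and U4469, 2 nt 5′ of Ψ4471, with 28.4% against 5.15% under magnesium. G4297, between Ψ4296 and Ψ4299, also rose in all 3, by 15.02, 14.5 and 10.9 points.

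m5C4447 passed no call. Its mutation share was 0.796% with CMC against 1.38% with mock in HIV RT, 1.58% against 0.9899% with manganese and 0.231% against 0.171% with magnesium. Its stop share was 1.97% against 2.43%, 0.352% against 0.160% and 0.376% against 0.0987%. The largest of these changes was under 0.6 points, and mismatches there were mostly read as T, at 67.0%, 92.3% and 81.6% with CMC.

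Of the ribose-methylated positions, Um4306 and Cm4456 passed the stop call in some conditions. Um4306 had 2.56% with CMC against 1.37% with mock in HIV RT, 12.9% against 5.15% with manganese and 11.4% against 3.19% with magnesium. It thus rose with SuperScript III under both metals. Centred on unlisted U of both rRNAs, its magnesium change was 4.30 points and did not pass. Cm4456, the base 5′ of Ψ4457, had 12.9% against 3.12%, 8.41% against 2.70% and 5.84% against 1.36%, and rose with HIV RT and manganese. By the booking, its stops are reads whose outermost base lies on Ψ4457. Gm4370 and Gm4392 changed by less than 3.1 points for stops and less than 0.9 points for mutations.

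Stop shares fell by the call at 3 positions with HIV RT, against 3.66% of all positions, at 2 with manganese, against 1.98%, and at 2 with magnesium, against 1.84%. None was a U. G4367 had 24.7% with mock and 2.82% with CMC in HIV RT, the highest mock stop share of the stretch there, and its mock share was 2.93% with manganese and 1.003% with magnesium. C4335 fell with SuperScript III in both metals, from 10.97% to 2.04% with manganese and from 12.3% to 1.86% with magnesium. The others were G4478 and C4308 with HIV RT, C4485 with manganese and C4387 with magnesium. No position was called as a fall with both HIV RT and SuperScript III. With so few falls this says little, and the share of all positions with such a joint fall was not computed.

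A4310, 2 nt 5′ of Ψ4312, often carried another base without CMC in every condition. Its mock mutation share was 4.97% with HIV RT, 4.59% under manganese and 4.84% under magnesium, and its CMC share was 6.52%, 6.31% and 7.20%. It was the highest mock mutation share of the stretch with HIV RT and magnesium and the next highest with manganese. The base read was G in 94.8%, 87.1% and 98.5% of the mock mismatches. A4310 was singled out after its values were seen, and it passed no call.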

How the data were processed

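The authors deposited 12 tables, 1 per library and rRNA. Per the file headers, a row gives counts of crossing reads in all and by base and the count of stops. The authors' mismatch rate and stop frequency are fractions. Recomputed from the counts, both fractions matched within 1e-09 in all 12 tables. The submitters' processing notes name Trimmomatic 0.32 and Bowtie 1.0, and how they were set is not given in the sources. The booking of stops at the base not copied, with the outermost base of each read left out, was checked on the crossing counts. At the 5′ end of each rRNA their rise equalled the stops in 12 of 12 tables. Along the rest they never rose by more than the stops allow, also in 12 of 12. Equality was not checked there.

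Positions needed 100 crossing reads in both libraries. Changes were tested with Fisher's exact test (scipy 1.17.1, statsmodels 0.14.6, Python 3.11.15) over all positions of both rRNAs. Tested on simulated data with the depths of the HIV RT mutation comparison (6935 positions), 49 of 50 positions raised by 6 points and 0 of 50 raised by 4 were called. With those of the magnesium stop comparison (6912 positions) 50 of 50 and 2 of 50 were called. The size threshold lies between these raises, so at such depths it largely fixed the outcome beforehand. The counts show that the threshold was applied, not how reliable the calls are. Spread between separate libraries was not measured and could not be tested this way. Groups have 1 library, so no p-value across samples was computed. Named beside the listed sites are, per condition and measure, the 3 other positions with the largest called rise, the largest called fall and any position called both ways (0 were). Members and lists were chosen with earlier results of these data known. Alternatives changed the read minimum, size threshold, centring, offset, pooling and the difference itself.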

Additional observations from a re-analysis of the deposited data

Results flagged for a closer look

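At 3 listed positions the conditions moved in opposite directions, with both 95% Newcombe intervals off 0; the differences between conditions were not tested, and 1 library stands behind each share. At Gm4370 the stop change was 2.11 points in HIV RT and 3.06 under manganese but -0.212 with magnesium. At Ψ4420 it was 1.96 points in HIV RT and 2.26 with magnesium but -0.578 with manganese. At m5C4447 the mutation change was -0.583 points in HIV RT against 0.589 under manganese, and the stop change was -0.461 with HIV RT against 0.192 with manganese and 0.277 with magnesium. None of these changes passed the 5-point threshold.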

How the results depend on the processing

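Values are given in the order HIV RT, manganese, magnesium. A minimum of 1000 crossing reads left all 24 summary values within 1.5 times or their interval. The lowest crossing count in the stretch was 8152, so this minimum could remove none of its positions and was no check on them. Pooling reads over the 13 pseudouridines in place of the median gave mutation changes of 7.65, 9.36 and 2.86 points and stop changes of 24.5, 22.7 and 34.0. Centring on the same base gave 2.55, 2.04 and 0.343 and 10.3, 4.31 and 7.99, and moved stop falls to 1 with manganese and 4 with magnesium. Calls at pseudouridines were then 4 for mutation with manganese and 6 and 9 for stops with manganese and magnesium. Counting reads that ended on the site as stopped, chosen after seeing the data, gave stop changes of 22.9, 11.8 and 12 points.

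Calls moved with the threshold, and shares over all positions were not computed at these alternative settings. At 2 points, mutation rises at pseudouridines were 11 with HIV RT and 2 with magnesium, and at other positions 9, 12 and 2. Stop rises at other positions were 41 with HIV RT and 39 with magnesium, and stop falls 34, 25 and 33. At 10 points, mutation rises were 1 at pseudouridines with manganese and 0 and 1 elsewhere with HIV RT and manganese. Stop rises were 3 at pseudouridines with manganese and 11, 15 and 12 elsewhere, and falls 0 with manganese and 1 with magnesium. A ratio of at least 2 in place of the difference gave mutation rises at 13, 13 and 13 pseudouridines and 32, 90 and 89 other positions, mutation falls at 37, 17 and 2, stop rises at 48, 53 and 49 other positions and stop falls at 56, 56 and 58.

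Taking stops 1 nt 5′ gave medians of 9.45 with HIV RT and 4.48 with magnesium and 6 calls with magnesium. Taking them 1 nt 3′ gave 1.36, 1.20 and 2.39 points and 4 calls with HIV RT and with magnesium. There 4 called changes turned sign: Ψ4312 at -0.602 and Ψ4471 at -1.25 with HIV RT, and Ψ4423 at -1.74 and Ψ4431 at -0.0704 with magnesium. No paired analysis was possible because each group has 1 library, so no replicate numbers pair samples within a condition. Treatment with the condition as a block over all 6 libraries was not fitted. At this depth counting error at a listed position stayed within 0.677 points, and the spread between separate cultures or treatments was not measured.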
